A study of Arabidopsis thaliana with 45 samples.

Results

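The first true leaves of Arabidopsis thaliana held a set of 200 genes that stayed level from D13 to D30 in Col-0 under long days and were higher at D40. They were taken from 37336 genes in the deposited table. A gene entered when its long-day D40 mean was 100 or more normalised read counts and its D13, D18, D23 and D30 means of log2(value + 1) lay within 1 log2 unit of each other, which 8537 genes met. These were ranked by D40 minus the highest earlier day (the D40 gap), and the first 200 were kept. The genes were thus chosen by their Col-0 long-day values, which are given as a description only. Every test below was made in the other 2 series, Col-0 under short days and tcx5/6 under long days.

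Leaf senescence is the last stage of leaf development, in which the photosynthetic apparatus is taken apart and nitrogen, phosphate and sugars are moved to the rest of the plant. Autophagy carries cell contents to the vacuole for breakdown, and the hormones abscisic acid, ethylene and salicylic acid promote the process while cytokinin delays it. Polygalacturonases loosen pectin between cells where plant organs separate, under control of the receptor kinase HAE.

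RNA sequencing of polyadenylated RNA gave 45 libraries in 15 groups of 3. The groups were tcx5/6 under long days (16 h of light) at D13, D18, D23, D30 and D45, Col-0 under short days (with light for 8 h) at D13, D18, D23, D30 and D40, and Col-0 under long days at the same days as short days. The labels do not spell out the day unit DAG, nor what sets the 3 replicates of a group apart. P-values therefore measure how much the libraries themselves vary, and that variation may be technical. TCX5 and TCX6, the CXC-domain genes that the line is named for, were read as a check of the labels: TCX5 had 231 to 522 normalised read counts in the libraries labelled tcx5/6, 54.1 to 216 in Col-0 short days and 271 to 525 in Col-0 long days, and TCX6 had 0 to 142, 219 to 2200.0 and 15.7 to 418 in the same order. The TCX5 range of tcx5/6 overlaps that of Col-0 long days and lies above that of short days, so its levels do not tell the line apart, and tcx5/6 below means the libraries labelled so. Each library held 16824317 to 40252818 reads in genes. In each library 45.95% to 48.19% of the reads were assigned to no gene feature. The strand setting of the read counting is not given, and its part in this share was not tested.

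Some libraries stood apart. The 3 libraries of each short-day group differed by about as much at high as at low read counts (the ratio of their dispersion index at high to that at low counts was 1.13 to 1.25, against 2.40 to 19.8 in tcx5/6 and 6.93 to 37.3 in Col-0 long days). Short-day counts are therefore also given with each short-day group taken as 1 library. Among the tcx5/6 libraries, D18 replicate 2 had reads in the fewest genes (18702) and had 66 of the 200 genes at 0, against 40 to 51 in the other tcx5/6 libraries up to D30. It enters the comparisons below through the shared spread alone.

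The D40 gap ran from 12.11 log2 units for the first gene to 2.005 for the last, with a median of 3.07, and was over 5 for 47 genes and over 3 for 103. The D40 mean, not divided by gene length, had a median of 1284 and ran from 100.1 to 55664, the last for NSP5, a nitrile specifier protein of glucosinolate breakdown. The set had 2 kinds of starting level. In 51 genes every earlier group mean was under 5 normalised read counts, and 18 of them had no read in any of the 12 earlier libraries. In the other 149 genes every earlier mean was 5 or more. Across the set, 192 genes had all 3 D40 libraries above all 12 earlier libraries, 7 genes had 2 and 1 gene had 1.

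The 3 D40 libraries were unequal. The median gene had 1808 normalised read counts in replicate 1, 974 in replicate 2 and 765 in replicate 3. Replicate 1 was the highest for 177 of the 200 genes and held over 50% of the D40 sum for 117 of them. In 11 genes 1 library held over 90%. The same library had the lowest levels of photosynthesis genes: RBCS1A, a small subunit of Rubisco, had 4322, 27955 and 21098 in replicates 1, 2 and 3, and LHCB3, an antenna protein, had 566, 3185 and 2660. SAG12, a senescence protease that is not one of the 200, had 246622, 208951 and 125164. Whether this difference between libraries bears on single genes was not tested. Without D40 replicate 1 the rule kept 165 of the 200 genes, and without D30 replicate 1 it kept 142, the fewest for any long-day library left out.

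**Figure D1:**
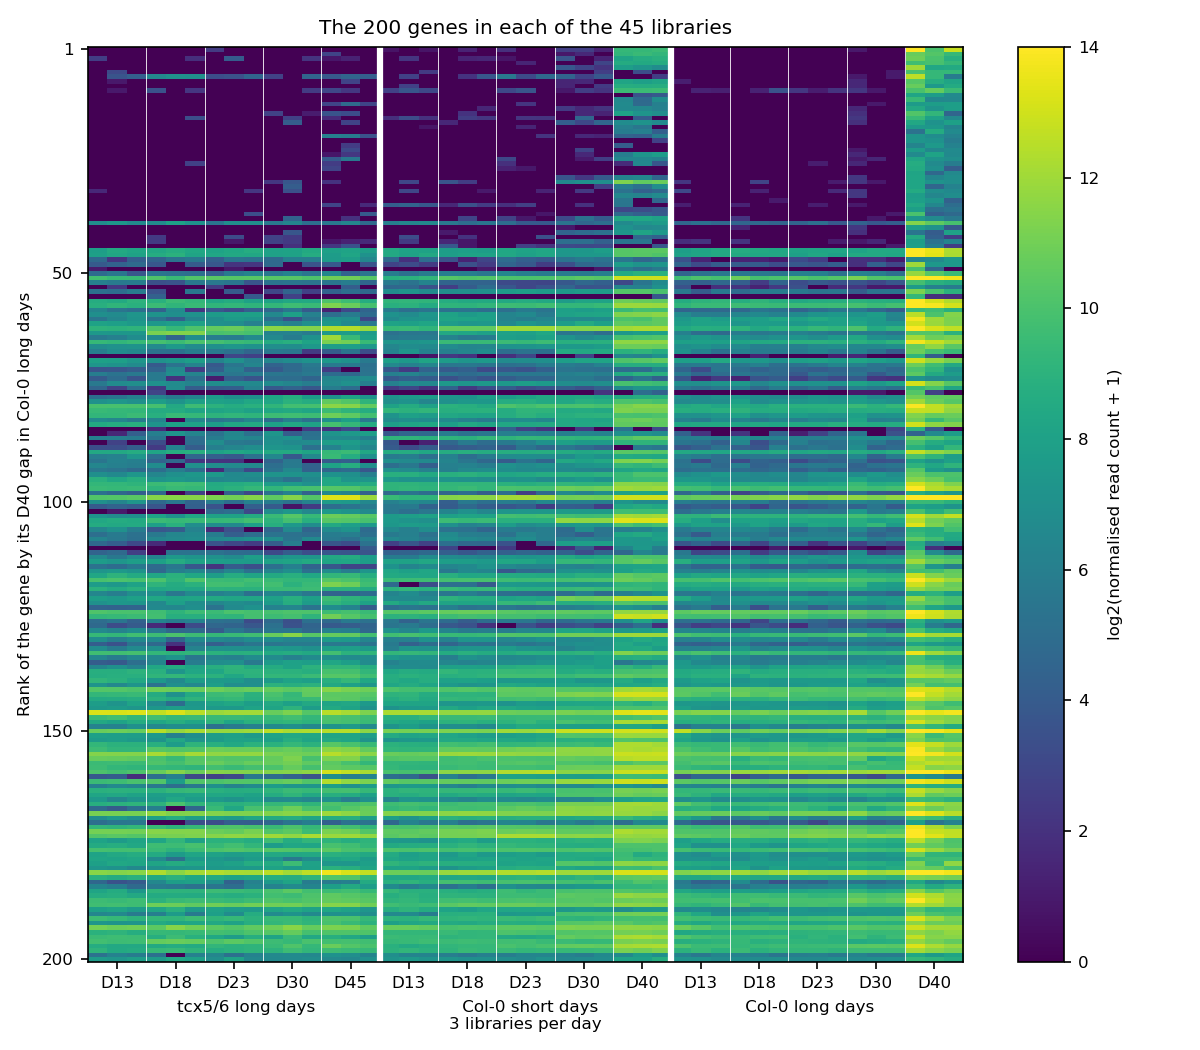
Levels of the 200 genes (rows, ordered by D40 gap) in each of the 45 libraries (columns, 3 per day), as log2(normalised read count + 1). The Col-0 long-day D40 columns are bright throughout, the short-day D40 columns are bright for most rows, and the tcx5/6 D45 columns stay dark for most of the first 47 rows, those with a gap over 5.

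At the edge of the list, the last genes kept were AT5G59840, a Ras-related small GTPase, with a D40 gap of 2.008, AT3G47530, a pentatricopeptide repeat protein, with 2.006, and AT5G54569, an RNA with no assigned function, with 2.005. The first genes left out were AT4G36770, a UDP-glycosyltransferase, with 1.999, APG9, the autophagy membrane protein, with 1.996, and PLC5, a phospholipase C, with 1.975. The D40 gaps on both sides of the edge are close to each other.

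In the RefSeq annotation of TAIR10.1, 189 of the 200 genes were protein coding (94.5%, against 74.1% of all annotated genes in the table). A further 8 were long non-coding RNAs, 1 was an antisense RNA and 2 were pseudogenes. The genes lay on all 5 chromosomes (44, 32, 36, 35 and 53 on chromosomes 1 to 5), and 21 were neighbours of another member. For 67 of them an exon overlapped one of another gene transcribed the other way. The libraries were not stranded, so reads of such a gene and its partner cannot be told apart. For 17 genes over 50% of the D40 level is expected from the partner, and the share is given below where it is large for a named gene. In 16 genes the partner is itself 1 of the 200, as for CYP91A2 and AT4G37432.

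The 250 bases before the annotated start of each gene were searched on both strands for short motifs, as a description. The W-box (TTGACC or TTGACT), which WRKY factors bind, was found in 34.0% of the 200 promoters, in 28.1% of those of the genes tested and in 27.4% of all promoters. The G-box (CACGTG), bound by bZIP and bHLH factors, was in 11.5%, 6.8% and 5.5%, and the as-1 core (TGACGT) was in 14%, 7.7% and 6.8%. The abscisic acid response element (ACGTGGC or ACGTGTC), which can overlap a G-box, was in 8.0%, 6.9% and 5.4%. The GCC box (GCCGCC) was in 0 of the 200, 2.1% of those tested and 2.0% of all. The dehydration-responsive element core (CCGAC) was in 11.5%, 12.6% and 12%, and the heat shock element (GAANNTTC) was in 8.0%, 9.8% and 9.4%. The NAC site (TTACGTGT or ACACGTAA) was in 1.5%, 0.9% and 0.9%, and the evening element (AAAATATCT) in 4.5%, 2.4% and 2.1%. The P1BS motif (GNATATNC) was in 8.5%, 5.4% and 5.2%. The promoters of 5 genes are printed because those genes illustrate organ separation and abscisic acid or seed proteins below; they were picked after their values were seen and come from RefSeq TAIR10.1 (the deposited table names no build), 5′ to 3′ on the gene's own strand. Capitals mark the W-box, the G-box and the abscisic acid response element. PGAZAT and ADPG1 have none of the 3 motifs in this window. Nor do ABI1, an abscisic acid gene, and ATG8H, an autophagy gene, both described below, whose promoters were read but are not printed.
PGAZAT, chromosome 2, minus strand: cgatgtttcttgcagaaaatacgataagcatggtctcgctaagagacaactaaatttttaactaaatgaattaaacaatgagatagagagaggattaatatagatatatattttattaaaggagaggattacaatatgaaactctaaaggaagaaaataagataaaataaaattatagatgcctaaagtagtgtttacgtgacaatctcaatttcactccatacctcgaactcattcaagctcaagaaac
ADPG1, chromosome 3, minus strand: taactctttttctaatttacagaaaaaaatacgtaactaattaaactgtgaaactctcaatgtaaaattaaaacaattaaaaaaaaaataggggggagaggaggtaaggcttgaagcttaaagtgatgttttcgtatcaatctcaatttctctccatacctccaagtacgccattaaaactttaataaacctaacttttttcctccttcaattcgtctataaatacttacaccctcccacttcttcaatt
HAE, chromosome 4, plus strand: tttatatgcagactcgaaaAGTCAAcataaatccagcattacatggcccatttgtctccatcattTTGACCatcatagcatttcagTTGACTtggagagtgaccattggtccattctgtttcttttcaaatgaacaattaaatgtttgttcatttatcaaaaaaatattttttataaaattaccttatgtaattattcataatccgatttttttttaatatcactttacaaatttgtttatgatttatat
MAPKKK18, chromosome 1, plus strand: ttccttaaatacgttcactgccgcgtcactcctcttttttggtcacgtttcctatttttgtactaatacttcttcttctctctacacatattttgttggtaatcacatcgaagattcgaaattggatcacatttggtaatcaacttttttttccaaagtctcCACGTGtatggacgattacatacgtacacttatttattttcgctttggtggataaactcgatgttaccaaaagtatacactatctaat
GEA6, chromosome 2, minus strand: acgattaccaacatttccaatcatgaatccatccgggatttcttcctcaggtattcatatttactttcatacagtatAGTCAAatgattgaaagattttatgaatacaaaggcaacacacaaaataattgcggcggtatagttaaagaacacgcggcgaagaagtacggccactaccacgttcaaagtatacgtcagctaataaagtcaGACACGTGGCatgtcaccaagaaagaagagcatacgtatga
HAE, the receptor kinase of organ separation, has 3 W-boxes. MAPKKK18, a kinase of abscisic acid signalling, has a G-box, and GEA6, a late embryogenesis protein gene, has a W-box and a G-box inside a pair of abscisic acid response elements.

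Short days were examined first, to see what the same genes did in Col-0 leaves under another day length. Most of them were higher at the last day there too. At D40 against D13, 161 of the 200 were higher and 2 were lower, and 37 were not called (limma, adjusted p under 0.05, on log2(value + 1), a scale that understates the change of low genes). Among all 23493 genes tested, 34.0% were called higher and 36.5% lower. The median log2 change was 2.37 for the 200 and -0.06 for all genes tested. With genes at 0 on D13 set to their lower bound, against 3 reads over the group, the median over the 197 genes that allow a fold was 2.43. The 25 photosynthesis markers together summed to 642998 to 668057 at short-day D40 and to 3146535 to 3245116 at D13, and their part in these counts was not tested. In whole leaves, fewer cells of a type and less RNA per cell cannot be told apart.

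Taking each short-day group as 1 library left 122 genes called higher, against 22.8% of all genes tested. On the recovered reads edgeR called 166 higher, against 34.7% of all genes tested. Tools differed for genes without a read at D13: DESeq2 left 23 of the 161 uncalled, with adjusted p of 0.08 to 0.51, and 19 of these were at 0 in all 3 D13 libraries.

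The timing in short days was less abrupt than the long-day rule required. Because that rule chose the genes by their long-day timing, this contrast is a description only. The counts by shape were not made over all genes tested. The median of the group means was 113 at D13, 111 at D18, 139 at D23, 196 at D30 and 644 at D40. In 172 genes the highest short-day mean was at D40, and in 121 it was at least 1 log2 unit above every earlier day. Only 82 genes were within 1 log2 unit over the first 4 short-day groups, and 50 of them were also at least 1 log2 unit higher at D40. At D40 against D30, 143 genes were higher and 1 was lower (background 17.9% and 20.4%). At D30 against D13, 77 were higher and 13 were lower (background 28.8% and 28.7%). As 1 library per group, 54 genes were higher at D40 against D30 (background 3.36%) and 36 at D30 against D13 (background 13.9%).

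**Figure D2:**
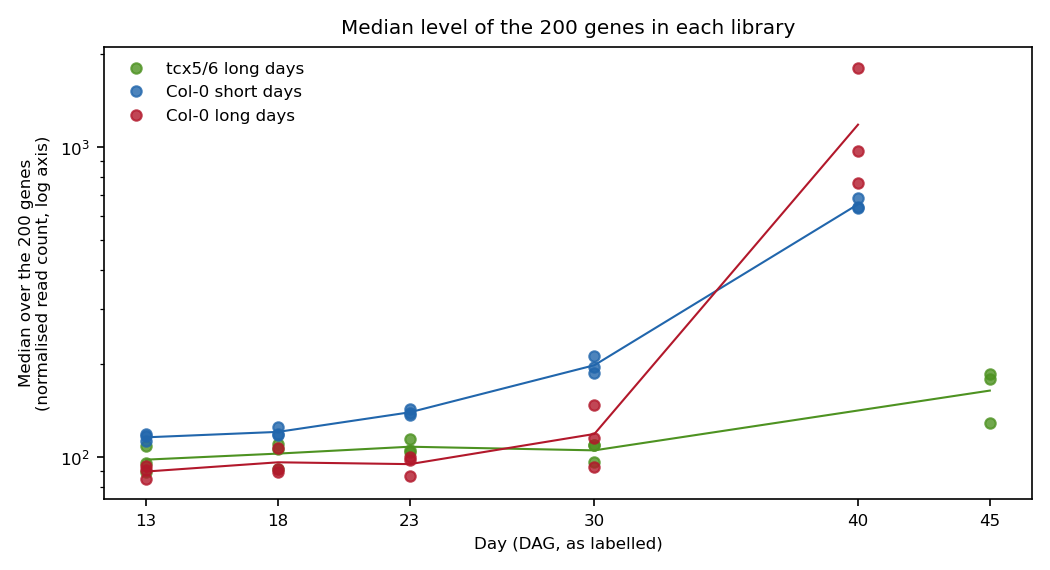
Median normalised read count over the 200 genes in each library (points) with the mean of the 3 libraries (lines), by day and series, on a log axis. The tcx5/6 libraries at D45 lie at 178, 184 and 129, the short-day libraries at D40 at 640.0, 637 and 685, and the Col-0 long-day libraries at D40 at 1808, 974 and 765.

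The tcx5/6 leaves under long days were read next, as a second genotype followed to a later last day. Fewer of the 200 genes were higher there. At D45 against D13, 73 were higher, 15 were lower and 112 were not called (limma), against 30.1% of all genes tested called higher and 33.9% lower. The share called higher was 45.6% (68 of 149) for the genes that began long days at 5 or more and 9.8% (5 of 51) for those that began lower. This split uses long-day values that chose the genes, so it is a description only. Of the 51, 42 had no read in any tcx5/6 D13 library and 25 allow no fold. All 200 genes passed the filter on low values, but only 152 did so on tcx5/6 libraries alone. On the recovered reads edgeR called 79 of the 200 higher, against 31.3% of all genes tested. The median log2 change was 0.60 for the 200 and -0.04 for all genes tested, and it was 0.384 without D45 replicate 1, 0.395 without replicate 2 and 0.825 without replicate 3. Over the 175 genes that allow a fold, with genes at 0 set to their bound, the median was 0.69. The photosynthesis markers summed to 334088 to 1026888 at D45 and to 3802655 to 4200201 at D13, and their part was not tested.

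At the last day 25 genes had no read in any of the 3 tcx5/6 D45 libraries, and 48 had a mean under 10. In short days at D40 these numbers were 3 and 12. Genes at 0 or under 10 were not counted over all genes tested. Of the 51 genes that began long days lower, 38 (74.5%) were called higher in short days at D40. The share was 82.6% (123 of 149) for the genes that began at 5 or more and 34.0% for all genes tested. The median of the tcx5/6 group means was 93.4 at D13, 98.9 at D18, 100.1 at D23, 103 at D30 and 168 at D45. At D45 against D30, 47 genes were higher and 7 were lower (background 9.49% and 13.6%), and leaving out D45 replicate 1 gave 25 higher. That library had the lowest RBCS1A of the 3, with 26361, 36505 and 73515 in replicates 1, 2 and 3, and the part of this in the counts was not tested. SAG12 had 141, 22.6 and 0 in the same tcx5/6 libraries and 185464 to 189405 at short-day D40. At D30 against D13, 47 were higher and 23 were lower (background 27.3% and 30.5%). Only 2 genes had a tcx5/6 D45 mean at or above the Col-0 long-day D40 mean, and 24 had such a short-day D40 mean. Those differences from the long-day values were not tested, because the long-day values chose the genes.

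The difference between both series was then tested directly, as the tcx5/6 change (D45 minus D13) minus the short-day change (D40 minus D13). The change was smaller in tcx5/6 for 118 genes and larger for 6 (limma), against 20.1% and 16.8% of all genes tested. The median difference was -1.71 for the 200 and -0.02 for all genes tested. As 1 library per short-day group, 67 were smaller and 1 was larger (background 8.20% and 6.10%). On the recovered reads edgeR called 84 smaller (background 17.2%) and DESeq2 90 (background 19.0%). The last days differ (D45 and D40), and day length and genotype differ together, so these cannot be told apart.

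In all, 66 genes were called higher in both series, 95 in short days and not in tcx5/6, 7 in tcx5/6 and not in short days, and 32 in neither. These joint classes were not counted over all genes tested, of which 34.0% were called higher in short days and 30.1% in tcx5/6. Among the 95, the difference itself was called for 79, a count that rests on the same changes that define the 95. At the last day the median level of the 66 was 1081 in tcx5/6, 2128 in short days and 3626 in Col-0 long days. For the 95 it was 46.3, 418 and 820.1. The calls that define the classes use the tcx5/6 D45 values, so the tcx5/6 medians are no separate result. The long-day D13 mean was under 5 for 34 of the 95 and for 4 of the 66.

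**Figure D3:**
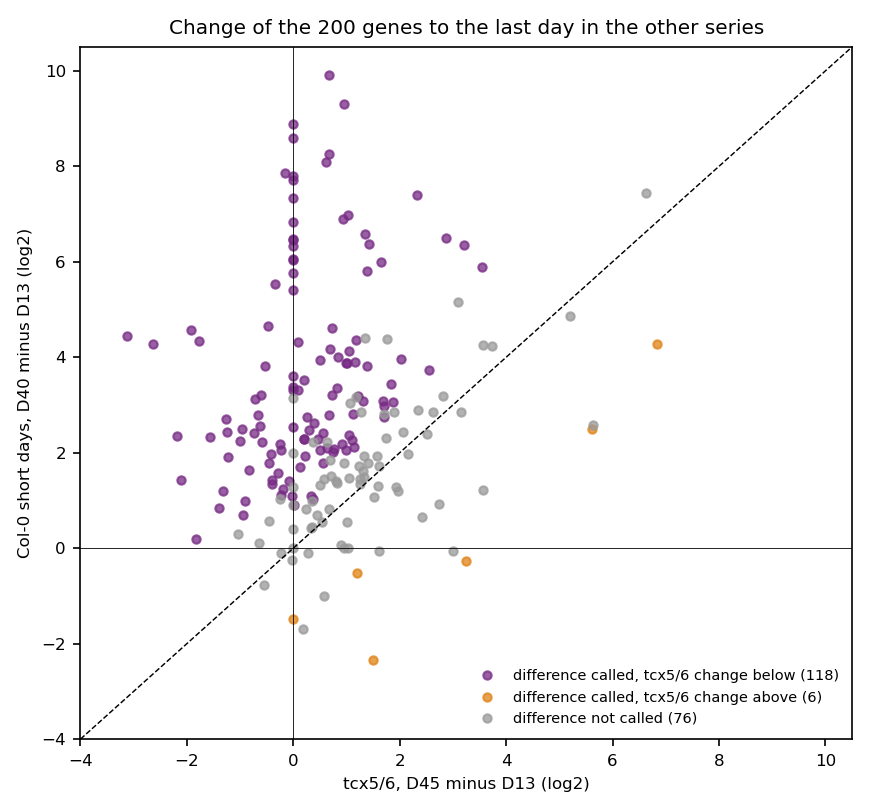
Log2 change of each of the 200 genes from D13 to the last day in tcx5/6 (horizontal, D45) and in Col-0 short days (vertical, D40); the dashed line marks equal change. Purple points (118) lie above the line with a called difference, orange points (6) lie below it, and grey points (76) were not called.

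A pair of polygalacturonases ranked 1 and 5 by D40 gap. PGAZAT, a polygalacturonase known as ADPG2, had the largest D40 gap (12.105): its long-day D40 libraries had 21982, 1047 and 7259, and of the 12 earlier libraries only 1 had a read. In short days it had 634, 649 and 757 at D40 and 0.681, 0 and 0.734 at D13, which is 2590 reads against 2, a ratio of 1460.0 with a 95% exact counting interval of 405 to 12100.0 (log2 change 8.89 ± 0.69, adjusted p = 1.1e-13). The tcx5/6 libraries had none at D45 or D13. The other polygalacturonase, ADPG1, had 4103, 328 and 364 in long days at D40, with most of the reads in replicate 1, and no read before. Its short-day libraries had 232, 157 and 112 at D40 and 0 in all 3 libraries at D13, at least 237-fold higher (adjusted p = 4.8e-14), and DESeq2 gave an adjusted p of 0.25. At short-day D30 ADPG1 already had 13.7, 6.05 and 3.34 (D30 minus D13, log2 2.94 ± 0.55, adjusted p = 2.3e-05). No tcx5/6 library at any day had a read of ADPG1.

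HAE behaved unlike this pair. It was well above 0 in every library, with 8712, 4101 and 6699.8 at long-day D40. The tcx5/6 leaves had 1835, 1678 and 1319 at D45 and 139, 102 and 117 at D13 (log2 3.74 ± 0.24, adjusted p = 1e-15), and short days had 4379, 4095 and 4439 at D40 and 193, 231 and 266 at D13 (log2 4.23 ± 0.24, adjusted p = 4.9e-17). In both series the last-day libraries lay above all D13 libraries. The test of the difference did not pass (log2 -0.49 ± 0.34, adjusted p = 0.28), and HAE had risen by D30 in tcx5/6 (log2 2.83 ± 0.24, adjusted p = 2.6e-12) and in short days (log2 1.86 ± 0.24, adjusted p = 4.5e-08).

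**Figure D4:**
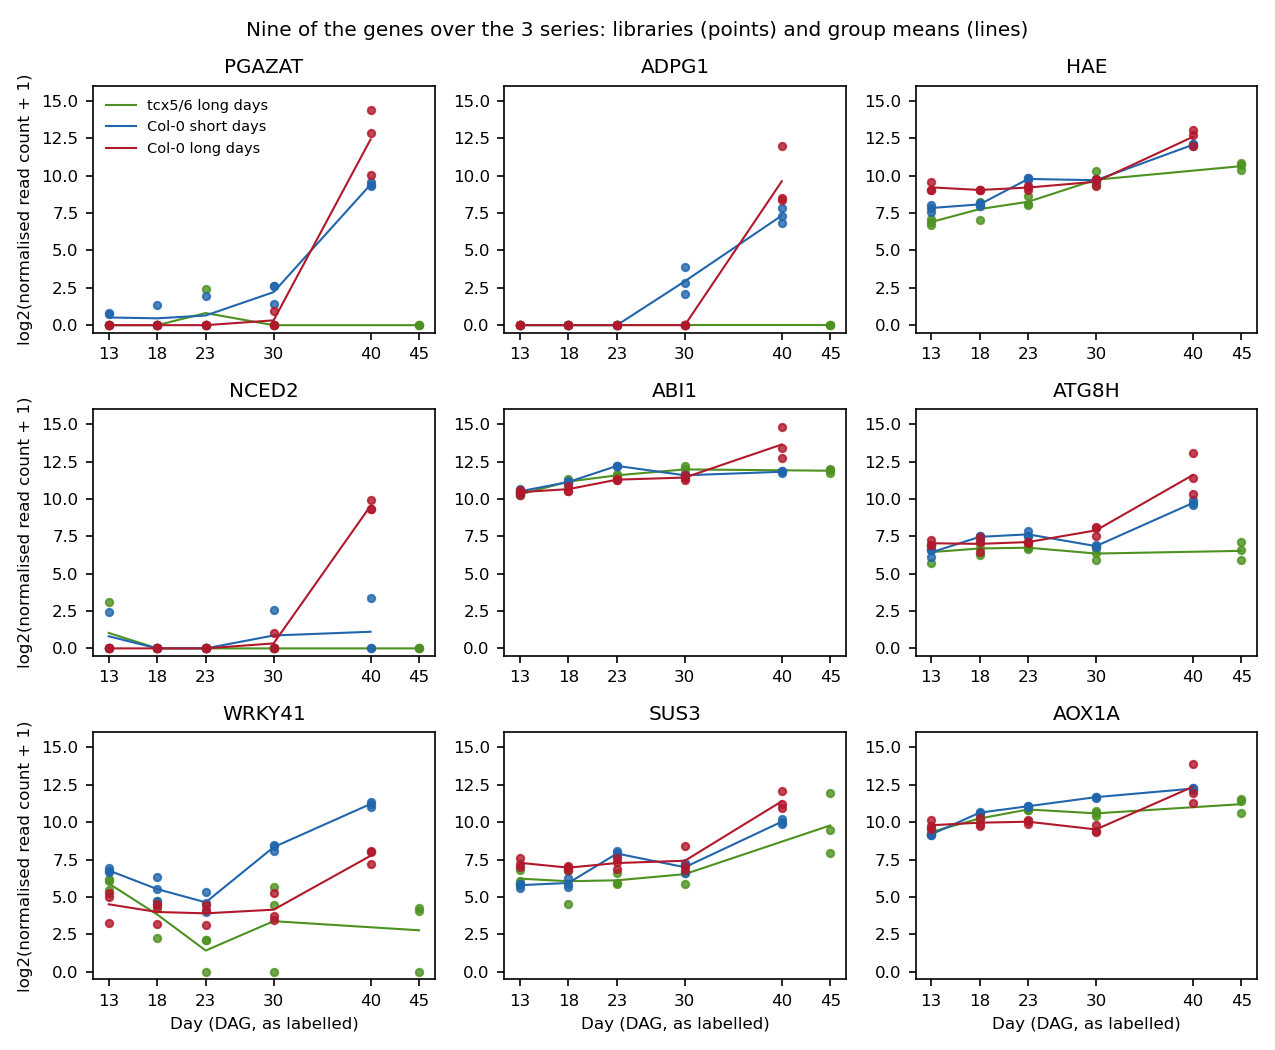
Log2(normalised read count + 1) of 9 of the genes by day in the 3 series, with libraries as points and group means as lines. PGAZAT and ADPG1 reach the last day at 0 in tcx5/6, NCED2 is high in Col-0 long days at D40 alone among these groups, and HAE, SUS3 and AOX1A are higher at the last day than at D13 in all 3 series.

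Among other wall genes of the set, AT5G46950, an inhibitor of invertase or pectin methylesterase, had 849, 964 and 647 at long-day D40 and no read before. It had 393, 360.4 and 407 in short days at D40 against 0 in all 3 D13 libraries, at least 549-fold higher (adjusted p = 4.2e-17; DESeq2, 0.19), and 0 in all 3 tcx5/6 D45 libraries. LAC7, a laccase, had 263, 149 and 122 at short-day D40 and 11.6, 9.04 and 0 at tcx5/6 D45, with 0 at D13 in all 6 libraries. The short-day rise was at least 252-fold (adjusted p = 5.3e-09). The tcx5/6 call (adjusted p = 0.024) ended without D45 replicate 1 (0.15) or replicate 2 (0.12), with a pseudocount of 5 (0.14) and with DESeq2 (0.22). RGXT3, a xylosyltransferase of the pectin rhamnogalacturonan II, was higher in both series: tcx5/6 had 192, 148 and 101 at D45 and 0, 0.948 and 0 at D13, a single read (log2 6.84 ± 0.44, adjusted p = 7.9e-16), and short days had 850.3, 818 and 804 at D40 and 47, 33.7 and 45.5 at D13 (log2 4.27 ± 0.44, adjusted p = 1.2e-10). In tcx5/6 the ratio of reads was 427, with a counting interval of 76.3 to 16900.0, and RGXT3 had reached 117, 172 and 93.1 by D30. The wall loosening, lignin and secondary wall list, of which 25 genes were measured, held none of the 200. In tcx5/6 5 of the 25 were higher and 16 were lower at D45 against D13 (median log2 -2.31, background 30.1% and 33.9%). In short days 10 were higher and 12 were lower at D40 against D13 (median -0.36, background 34.0% and 36.5%).

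FAH1, a cytochrome P450 of syringyl lignin and sinapate synthesis, went in opposite directions. It fell in tcx5/6, to 5797, 4366 and 2451 at D45, against 9843, 9534 and 10262 at D13 (log2 -1.32 ± 0.27, adjusted p = 6.8e-05). In short days it was higher, with 10210.2, 11259 and 10904 at D40 against 4868, 4778 and 4542 at D13 (log2 1.19 ± 0.27, adjusted p = 0.00022), a call that ended with each group as 1 library (0.09). Within tcx5/6, FAH1 was lower at D30 than at D13 (log2 -2.53 ± 0.27, adjusted p = 5.9e-10) and then higher at D45 than at D30 (log2 1.21 ± 0.27, adjusted p = 0.0011).

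EXO70H4, an exocyst subunit of trichome wall building, had 16.2, 40.7 and 8.76 at tcx5/6 D45 against 62.8, 113 and 90.04 at D13 (log2 -2.19 ± 0.597, adjusted p = 0.0017), and 486, 572 and 403 at short-day D40 against 71.5, 155 and 73.4 (log2 2.36 ± 0.597, adjusted p = 0.00071; as 1 library per group, 0.11). AT3G47540, a chitinase family gene, fell in tcx5/6 as well, with 30.9, 56.5 and 28.5 at D45 against 127, 107 and 155 at D13 (log2 -1.77 ± 0.41, adjusted p = 0.00031), and rose in short days, with 2519, 2756 and 2987 at D40 against 142, 105 and 161 at D13 (log2 4.34 ± 0.41, adjusted p = 1.7e-11). The difference between the series was -6.12 ± 0.58, adjusted p = 2.8e-10.

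CKX2, a cytokinin oxidase that degrades cytokinin, had 1897, 993 and 449.7 at long-day D40 and no read before. In tcx5/6 it had 0.773, 1.51 and 0 at D45 and 5.15, 0 and 0 at D13. Short days had 290.4, 402 and 471 at D40 and 0, 3.51 and 0 at D13 (log2 7.85 ± 0.89, adjusted p = 1.1e-09), and the difference between the series was -8.01 ± 1.26, adjusted p = 4.4e-06. NCED2, a dioxygenase of abscisic acid synthesis, was seen at Col-0 long-day D40, with 994, 646 and 640.1, and hardly elsewhere: its short-day D40 libraries had 0, 9.12 and 0 (log2 0.302 ± 0.73, adjusted p = 0.73) and its tcx5/6 D45 libraries had 0 in all 3.

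ABI1, a phosphatase that holds back abscisic acid signalling, had 29028, 10689 and 6722 at long-day D40. It was moderately higher in short days at D40, with 3689, 3403 and 3722 against 1343, 1588 and 1443 at D13 (log2 1.31 ± 0.24, adjusted p = 9e-06), and in tcx5/6 at D45, with 3874, 4183 and 3340.1 against 1225, 1357 and 1202 (log2 1.59 ± 0.24, adjusted p = 3.9e-07). Its short-day mean was highest at D23 and its tcx5/6 mean at D30. ABI1 and NCED2 were the members on an abscisic acid and dehydration list, of which 34 genes were measured. In short days 25 of these 34 were higher at D40 than at D13 and 1 was lower (median log2 2.24, background 34.0% and 36.5%). In tcx5/6 27 were higher at D45 than at D13 and 2 were lower (median 2.105, background 30.1% and 33.9%). At D40 against D30 in short days 5 were higher and 8 were lower (median -0.38, background 17.9% and 20.4%). At D30 against D13 in short days 29 were higher and 1 was lower (background 28.8% and 28.7%).

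MAPKKK18, named after its values were seen, had 3911, 174 and 175 at long-day D40, most of it in replicate 1. It had 214, 144 and 157 in short days at D40 and 6.13, 8.43 and 4.402 at D13 (log2 4.58 ± 1.12, adjusted p = 0.00049; as 1 library per group, 0.085), and 13.9, 0 and 10.95 in tcx5/6 at D45 and 14.4, 20.9 and 27.9 at D13 (log2 -1.92 ± 1.12, adjusted p = 0.13).

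EDS5, which exports the precursor of salicylic acid from the chloroplast, had 2495, 677 and 3330.3 at long-day D40. Short days had 3108, 2914 and 3105 at D40 and 563, 453 and 537 at D13 (log2 2.56 ± 0.33, adjusted p = 1.8e-08). Within tcx5/6 it was lower at D45 than at D30, with 165, 164 and 242 against 377, 760.2 and 253 (log2 -1.15 ± 0.33, adjusted p = 0.0096), and D45 against D13 was not called, with 252, 320.4 and 299 at D13 (log2 -0.63 ± 0.33, adjusted p = 0.097). The difference between the series was -3.19 ± 0.47, adjusted p = 1.4e-06. On the salicylic acid and immunity list, 25 of 27 measured genes were higher at short-day D40 than at D13 (median log2 3.70, background 34.0%). In tcx5/6 19 were higher and 1 was lower at D45 against D13 (median 2.65, background 30.1% and 33.9%). In that series 8 were lower at D45 against D30 (median -1.50, background 13.6%).

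The autophagy list held 4 of the 200. ATG8H, a ubiquitin-like protein that coats the autophagosome, had 8452, 2717 and 1314 at long-day D40. It had 959, 848 and 755 at short-day D40 and 68.1, 95.6 and 93.2 at D13 (log2 3.31 ± 0.39, adjusted p = 2.1e-09), and 94.3, 136 and 59.1 at tcx5/6 D45 and 50.4, 106 and 118 at D13 (log2 0.09 ± 0.39, adjusted p = 0.87). The short-day libraries did not overlap between D40 and D13, and the tcx5/6 libraries did. APG7, also called ATG7, the enzyme that activates ATG8, had 1555, 1463 and 1469 at short-day D40 and 238, 287 and 323 at D13 (log2 2.41 ± 0.28, adjusted p = 1.2e-09). The tcx5/6 libraries had 926, 634 and 375 at D45, against 251, 341 and 270.4 at D30 (log2 1.08 ± 0.28, adjusted p = 0.0036) and 369, 410.4 and 446 at D13 (log2 0.57 ± 0.28, adjusted p = 0.07). G18F, also called ATG18F, was higher in both series, with log2 2.28 ± 0.26, adjusted p = 1.1e-09 in short days and 1.098 ± 0.26, adjusted p = 0.00035 in tcx5/6. ATG18H had the smallest short-day change of the 4, with log2 0.701 ± 0.26, adjusted p = 0.015, where quantile normalisation gave 0.077, leaving out D13 replicate 2 gave 0.053 and 1 library per group gave 0.29. In tcx5/6 its log2 change was 0.44 ± 0.26, adjusted p = 0.13.

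Over the whole list, 19 of 21 measured autophagy genes were higher at short-day D40 than at D13 (background 34.0%). At tcx5/6 D45, 16 were higher than at D13 (background 30.1%). The median log2 change was 1.93 in short days and 1.80 in tcx5/6, beside -0.06 and -0.04 for all genes tested.

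By gene symbol, 2 WRKY genes, 1 NAC gene and 1 bZIP gene were among the 200. WRKY59 had 43.1, 16.02 and 256 at long-day D40. In short days it had 172, 292 and 181 at D40 against 0 in all 3 D13 libraries, at least 305-fold higher (adjusted p = 7.5e-12), and had 22.2, 29.2 and 36.7 by D30. All 3 tcx5/6 D45 libraries had 0.

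WRKY41 had 271, 144 and 251 at long-day D40 and reached 2393, 2656 and 2103 at short-day D40, against 123, 103 and 99.8 at short-day D13 (log2 4.44 ± 0.96, adjusted p = 0.00011; as 1 library per group, 0.067). In tcx5/6 it had 15.5, 18.1 and 0 at D45 and 42.2, 72.04 and 65.9 at D13 (log2 -3.13 ± 0.96, adjusted p = 0.0049). That call ended without D45 replicate 3 (0.11) and with the tcx5/6 libraries fitted alone (0.084). A partner on the opposite strand is expected to give 21.9% of its long-day D40 level.

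XND1, a NAC factor that restrains xylem differentiation, had 629.6, 561 and 783 at short-day D40 and 32.7, 47.8 and 17.61 at D13 (log2 4.38 ± 0.87, adjusted p = 3.5e-05). Leaves of tcx5/6 had 282, 415 and 124 at D45 against 31.9, 53.1 and 21.1 at D30 (log2 2.85 ± 0.87, adjusted p = 0.015) and 86.5, 68.2 and 60.9 at D13, a change from D13 that was not called (log2 1.76 ± 0.87, adjusted p = 0.076). BZIP24 was higher in both series, with 1208, 1057 and 1065 at short-day D40 and 57.9, 57.6 and 105 at D13 (log2 3.96 ± 0.32, adjusted p = 3.3e-13), and 352, 395 and 209 at tcx5/6 D45 and 94.7, 47.4 and 93.8 at D13 (log2 2.02 ± 0.32, adjusted p = 1.1e-06). SIB1, a VQ protein that binds plastid sigma factors and WRKY33, was higher by D30 in both series. In tcx5/6 it had 26.8, 15.2 and 35.5 at D13, 1088, 1911 and 1010.5 at D30 and 860.0, 1309 and 1715 at D45 (D30 minus D13, log2 5.66 ± 0.69, adjusted p = 1e-08). In short days it had 629, 751 and 623 at D13, 3118, 2938 and 3023 at D30 and 3912, 3637 and 3742 at D40 (D30 minus D13, log2 2.18 ± 0.69, adjusted p = 0.0074; D40 minus D13, log2 2.498 ± 0.69, adjusted p = 0.0018; as 1 library per group, 0.29 and 0.17). The change from D30 to the last day was not called in either series, and the change from D13 to the last day was larger in tcx5/6 (difference 3.12 ± 0.98, adjusted p = 0.012). PDE337, another VQ protein, had 1245, 425 and 293 at long-day D40, 286, 241 and 286 at short-day D40 and 0 in all 3 short-day D13 libraries, at least 384-fold higher (adjusted p = 1.5e-14). At tcx5/6 D45 it had 0, 6.02 and 0.

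DREB19, a transcription factor of the AP2/ERF family named after its values were seen, had 1394, 363 and 214 at long-day D40. Partners on the opposite strand are expected to give 40.3% of its long-day D40 level. Leaves of tcx5/6 had 28.6, 24.9 and 40.5 at D45 and 60.7, 39.8 and 49.5 at D13 (log2 -0.67 ± 0.45, adjusted p = 0.2). Short days had 359, 503 and 449 at D40 and 64.7, 75.2 and 49.1 at D13, groups that do not overlap (log2 2.78 ± 0.45, adjusted p = 1.5e-06), and the difference between the series was -3.45 ± 0.64, adjusted p = 5.6e-05.

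SUS3, a sucrose synthase, was higher in both series. It had 933, 1052 and 1159 at short-day D40 and 48.4, 56.2 and 57.95 at D13 (log2 4.25 ± 0.57, adjusted p = 4.6e-08), and 3911, 721 and 239.8 at tcx5/6 D45 and 53.5, 66.4 and 112 at D13 (log2 3.56 ± 0.57, adjusted p = 1.5e-06), with replicate 1 far above the others at D45. GTR2, a glucosinolate transporter, had 13662, 11052 and 7924 at long-day D40 and was higher in short days (log2 2.43 ± 0.32, adjusted p = 3.4e-08) and in tcx5/6 (log2 2.06 ± 0.32, adjusted p = 9.4e-07). SAG29, the sugar transporter SWEET15, had 6296, 633 and 54.7 at long-day D40, most of it in replicate 1. In short days it had 0, 5.62 and 0 at D13, 49.1, 7.76 and 26.7 at D23, 22.2, 6.05 and 13.4 at D30 and 0, 0 and 4.74 at D40. It was higher at D30 than at D13 (log2 2.82 ± 1.17, adjusted p = 0.039), and it was the 1 member lower at D40 than at D30 (log2 -2.89 ± 1.17, adjusted p = 0.049). Both calls ended with 1 library per group (0.33 and 0.47), a pseudocount of 5 (0.13 and 0.15), edgeR (0.099 and 0.14) and DESeq2 (0.13 and 0.14), and each without any of 4 libraries (0.08 to 0.15), and D40 did not pass against D13 (log2 -0.07 ± 1.17, adjusted p = 0.97). Leaves of tcx5/6 had 90.5, 128 and 127 at D18 and 13.9, 22.6 and 17.5 at D45.

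GDH3, a glutamate dehydrogenase, had 898, 473 and 385 at long-day D40. It had 6.97, 42.1 and 101 at short-day D40 and 52.5, 39.4 and 79.2 at D13 (log2 -0.77 ± 0.64, adjusted p = 0.29), and 42.5, 60.2 and 24.1 at tcx5/6 D45 and 65.9, 53.1 and 57.1 at D13 (log2 -0.55 ± 0.64, adjusted p = 0.47). The last-day and D13 libraries overlapped in both series. On the nitrogen remobilisation list that holds GDH3, 20 of 24 measured genes were higher at short-day D40 than at D13 and 2 were lower (median log2 2.2, background 34.0% and 36.5%). At tcx5/6 D45 against D13, 17 were higher and 3 lower (median 1.87, background 30.1% and 33.9%).

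PHT1;4, a phosphate transporter, had 244, 374 and 321 at short-day D40 and 316, 245 and 305 at D13 (log2 0.104 ± 0.46, adjusted p = 0.86), with a dip to 12.8, 27.6 and 30.8 at D23. NPC5, a phospholipase C of phosphate-starved plants, had 80, 192 and 72.6 at long-day D40 and at most 1 of 3 libraries with a read on the last day of the other series. On the phosphate starvation list, 12 of 19 measured genes were higher at short-day D40 than at D13 and 1 was lower (median log2 1.37, background 34.0% and 36.5%). At tcx5/6 D45 against D13, 9 were higher and 1 lower (median 1.004, background 30.1% and 33.9%). PAP20, a purple acid phosphatase, had the second largest D40 gap, with 1749, 1242 and 669.9 at long-day D40 and no read before. It had 602, 704 and 586 at short-day D40 against 0 in all 3 D13 libraries, at least 894-fold higher (adjusted p = 8.2e-18; DESeq2, 0.16), and a read in 1 of the 3 tcx5/6 D45 libraries.

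AOX1A, the alternative oxidase of mitochondria, was higher by D30 in tcx5/6 (log2 1.25 ± 0.31, adjusted p = 0.00088) and in short days (log2 2.496 ± 0.31, adjusted p = 2.2e-08). The tcx5/6 leaves had 3046, 2706 and 1587 at D45, 1551, 1689.6 and 1387 at D30 and 763, 599 and 588 at D13 (D45 minus D13, log2 1.87 ± 0.31, adjusted p = 3.1e-06). Short days had 4929.7, 4560.4 and 5073 at D40, 3271, 3195 and 3329 at D30 and 595, 569 and 569 at D13 (D40 minus D13, log2 3.07 ± 0.31, adjusted p = 1.1e-10), and the difference between the series was -1.200 ± 0.45, adjusted p = 0.032. On the oxidative stress and alternative respiration list that holds AOX1A, 15 of 21 measured genes were higher at short-day D40 than at D13 and 2 were lower (median log2 3.07, background 34.0% and 36.5%). At tcx5/6 D45 against D13, 12 were higher and 3 lower (median 1.81, background 30.1% and 33.9%).

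Genes of late embryogenesis abundant proteins, which protect cells from drying in seeds, were picked out after their values were seen. There were 6 of them, and in all 6 long-day D40 replicate 1 was the highest library. GEA6 had 635, 2.67 and 2.38 at long-day D40, AT2G42560 had 1214, 5.34 and 0, and AT5G53820, at rank 16, had 702, 256 and 95.2. AT5G53820 had 2.32, 0 and 0 at tcx5/6 D45 and 0, 16.1 and 0 at short-day D40. GEA6 had 0, 0 and 13.5 at short-day D40 and was at 0 in all 3 tcx5/6 D45 libraries. Of the 6, 3 were called higher in short days at D40 against D13 and none in tcx5/6. The shares called higher were 80.5% and 36.5% for the 200, and 34.0% and 30.1% for all genes tested. AT3G53040 had 85.96, 75.7 and 135 at short-day D40 and 0, 0 and 0.734 at D13 (adjusted p = 9.3e-06), and was at 0 in all 3 tcx5/6 D45 libraries. AT2G42560 had 0, 32.3 and 20.3 and AT3G17520 had 37.2, 0 and 8.12 at short-day D40, each with 0 in all 3 D13 libraries, so they were at least 24.8-fold and 21.4-fold higher (adjusted p = 0.027 and 0.042). Both of these calls ended without any 1 of 5 short-day libraries (0.053 to 0.29), with a pseudocount of 5 (0.085 and 0.093) and with 1 library per group (0.28 and 0.31), and that of AT3G17520 also with quantile normalisation (0.087) and DESeq2 (0.15). AT5G66780 had 0, 26.6 and 20.3 at short-day D40 and 0, 8.43 and 0 at D13 (log2 1.99 ± 1.17, adjusted p = 0.13). GEA6 is the 1 member of the flower, pollen and seed list. The other 30 genes of that list that are in the table summed to 258 to 271 in the long-day D40 libraries and to 486 to 840 at long-day D13. Single genes went both ways between these groups, and LFY, AP1, CRU2 and SESA5 were at 0 in both. The long-day means at D13 and D40 were 403.884 and 90.955 for TPD1 and 57.72 and 6.501 for SEP3. They were 3.622 and 21.323 for AMS, 3.465 and 16.156 for AG, 16.951 and 42.364 for PI and 12.022 and 26.217 for FUS3. These changes were not tested. Of 4 meristem and 5 root markers, the meristem genes summed to 0 to 18.7 at long-day D40 and the root genes to 320.0 to 488, against 538 to 697 for the root genes at D13. The 25 leaf photosynthesis markers summed to 77120 to 311526 at long-day D40 and to 6329401 to 6547317 at D13.

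Among the first 25 genes, those not yet described were mostly at 0 or near it before the last day. CYP709B2 and CYP76G1, both cytochromes P450, had 736, 746 and 769 and 60.4, 151 and 211 at short-day D40. Against D13, CYP709B2 changed by log2 6.38 ± 0.903, adjusted p = 1.1e-07, and CYP76G1, at 0 in all 3 D13 libraries, was at least 200-fold higher (adjusted p = 4e-14; DESeq2, 0.23). In tcx5/6 at D45 they had 6.96, 3.77 and 0 for CYP709B2 and 0.773, 3.77 and 0 for CYP76G1. The serine carboxypeptidase-like gene scpl14 had 99.9, 91.2 and 70.4 at short-day D40, at least 124-fold above D13 (adjusted p = 2e-15), and 0 in all 3 tcx5/6 D45 libraries.

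AT1G20180, a DUF677 membrane protein, had 416, 409 and 416 at short-day D40 and 0, 5.62 and 0 at D13 (log2 7.79 ± 0.62, adjusted p = 2e-13; DESeq2, 0.37), and 0 in all tcx5/6 libraries. AT1G15385, AT3G44326, AT5G03550 and AT1G29100 (a cotton fiber protein, an F-box protein, a MATH domain protein and a heavy metal transport family protein) were called higher in short days with D40 means of 77.9, 119.8, 37.4 and 48.1, and had tcx5/6 D45 means of 0, 2.01, 0 and 0. DESeq2 left 3 of these 4 uncalled, with adjusted p of 0.30 for AT1G15385, 0.43 for AT5G03550 and 0.34 for AT1G29100. AT5G39110, a cupin family protein, had 209, 89.4 and 105 at long-day D40 and was at 0 in all 3 short-day D40 libraries. The RNA genes AT2G07225 and AT2G07235 overlap each other, had short-day D40 means of 8.703 and 1.805, and were at 0 in all tcx5/6 libraries; 56.7% and 75.5% of their long-day D40 levels are expected from the opposite strand.

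A few genes were low at D13 and higher at the last day in both other series. AT2G43730, a mannose-binding lectin, had 6.18, 27.9 and 6.57 at tcx5/6 D45 and 105, 28.05 and 67.7 at short-day D40, with 0 in all 6 D13 libraries, so it was at least 12.7-fold and 94.7-fold higher (adjusted p = 1.5e-07 and 1.3e-12; DESeq2, 0.35 and 0.14). AT3G22570, a lipid-transfer family protein, had 68.8, 58.7 and 10.95 and 20.9, 18.23 and 58.2 in those groups, at least 43.3-fold and 46-fold above D13 (adjusted p = 2.4e-10 and 9.5e-10; DESeq2, 0.12 and 0.10), with 76.5% of its long-day D40 level expected from the opposite strand. AT2G20030, a RING protein, had 15.5, 47.4 and 0 at tcx5/6 D45 and 85.96, 86.9 and 69.03 at short-day D40 (adjusted p = 0.00066 and 1.1e-08; DESeq2 gave 0.15 in tcx5/6).

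Protein kinase AT1G69790 had 223, 212 and 133 at tcx5/6 D45 and 0, 5.69 and 0 at D13 (log2 6.62 ± 0.87, adjusted p = 3e-08), and 556, 555 and 545 at short-day D40 and 12.3, 0 and 1.47 at D13 (log2 7.43 ± 0.87, adjusted p = 2.2e-09). It was already higher by D30 in tcx5/6 (log2 5.88 ± 0.87, adjusted p = 4.2e-07) and in short days (log2 6.08 ± 0.87, adjusted p = 2.7e-07). AT2G29620, annotated as a dentin sialophosphoprotein, was higher in both series, with log2 3.09 ± 0.68, adjusted p = 0.00016 in tcx5/6 and 5.16 ± 0.68, adjusted p = 2.8e-08 in short days, and its short-day D40 mean of 775 was above its long-day D40 mean of 108. AT5G59840 was higher by 0.76 ± 0.18, adjusted p = 0.00033 in tcx5/6 and by 2.08 ± 0.18, adjusted p = 1.2e-12 in short days.

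Other large differences between the series came from genes near 0 in tcx5/6. AT4G28460, an uncharacterized protein gene, had 3.09, 0 and 0 at tcx5/6 D45, 2553, 1541 and 1791 at short-day D40 and 302, 147 and 119 at long-day D40. Its short-day change was log2 9.904 ± 0.89, adjusted p = 4.8e-12, and the difference between the series was -9.23 ± 1.26, adjusted p = 3.9e-07. It already had 97.5, 125 and 125 at short-day D30. AT3G13435, also uncharacterized, had 0, 3.01 and 0 at tcx5/6 D45 and 345, 319.7 and 259 at short-day D40, with a difference of -7.59 ± 1.198, adjusted p = 4.8e-06.

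In tcx5/6 15 genes were lower at D45 than at D13 (background 33.9%), and 13 of them were higher at D40 in short days. Most of the 200 (80.5%) were higher there, so the 13 of 15 are near the share of the set. This pair of calls was not counted over all genes tested. Protein kinase AT1G66460 had 1.54, 7.53 and 21.9 at tcx5/6 D45 against 82.4, 41.7 and 32.97 at D13 (log2 -2.64 ± 0.67, adjusted p = 0.00083), and 709, 928 and 856 at short-day D40 against 54.5, 32.3 and 40.3 at D13 (log2 4.28 ± 0.67, adjusted p = 7.6e-07); 49.1% of its long-day D40 level is expected from the opposite strand. The RING gene AT3G27330 fell by 1.56 on the log2 scale in tcx5/6 (adjusted p = 0.0079; 0.06 with that series fitted alone) and rose by log2 2.32 ± 0.51, adjusted p = 0.00014 in short days (as 1 library per group, 0.069). SLG1, a pentatricopeptide repeat protein of mitochondrial RNA editing, had 20.9, 22.6 and 28.5 at tcx5/6 D45 against 86.5, 63.5 and 122 at D13 (log2 -1.84 ± 0.404, adjusted p = 0.00016), with 94.8% of its long-day D40 level expected from the opposite strand. The RNA gene AT3G02535 had 12.4, 6.02 and 6.57 at tcx5/6 D45 against 37.1, 30.3 and 46.9 at D13 (log2 -2.11 ± 0.62, adjusted p = 0.0033), and its partner is expected to give 108.9% of its long-day D40 level. Its short-day call (log2 1.42 ± 0.62, adjusted p = 0.04) ended without any of 5 libraries, with adjusted p up to 0.13, and with 1 library per group (0.38).

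In short days 2 members were lower. XIE, a myosin, had 41.8, 0 and 0 at D40 against 17.03, 21.1 and 13.2 at D13 (log2 -2.35 ± 0.94, adjusted p = 0.026). That call ended without any of 4 libraries, with edgeR (0.84) and with DESeq2 (0.91). The other was AT5G40880, a WD-40 repeat protein named after its values were seen, with 116, 179 and 199 against 421, 551 and 395 (log2 -1.48 ± 0.26, adjusted p = 5.3e-06).

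AT1G04490, a DUF3527 protein, had 179, 171 and 154 at short-day D40, 230.1, 242 and 249.6 at D30 and 5.45, 12.7 and 5.87 at D13 (D40 minus D13, log2 4.32 ± 0.99, adjusted p = 0.00024; as 1 library per group, 0.051), and 12.4, 9.04 and 37.2 at tcx5/6 D45.

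CYP91A2 and BGLU41, a cytochrome P450 and a beta-glucosidase, each overlap an RNA gene of the set, which is expected to give 83.6% and 36.9% of their long-day D40 levels. CYP91A2 had 1271, 1370.1 and 1437 at short-day D40 and 347, 277 and 271 at D13 (log2 2.19 ± 0.304, adjusted p = 7.8e-08), and in tcx5/6 252, 277 and 217 at D45 and 231, 357 and 304 at D13 (log2 -0.24 ± 0.304, adjusted p = 0.51). BGLU41 changed by log2 1.35 ± 0.32, adjusted p = 0.00031 in short days (as 1 library per group, 0.053) and -0.39 ± 0.32, adjusted p = 0.29 in tcx5/6. AT5G54569, the partner of BGLU41, changed by 0.99 ± 0.27, adjusted p = 0.0016 in short days (as 1 library per group, 0.12) and -0.91 ± 0.27, adjusted p = 0.0039 in tcx5/6. Of the long-day D40 level of AT5G54569, 86.1% is expected from the opposite strand.

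Succinate dehydrogenase subunits of mitochondria were among the 32 genes called higher in neither series, named after their values were seen. SDH1-1 had 12025 ± 7286 at long-day D40 and 2239 ± 838 at D30 (SD, n = 3). It had 3453 ± 367 at short-day D40 and 2584 ± 73.9 at D13 (log2 0.41 ± 0.24, adjusted p = 0.13). SDH2-1 had 7026 ± 5738 at long-day D40, 1469 ± 16.9 at short-day D40 and 1011 ± 36.96 at short-day D13 (log2 0.54 ± 0.29, adjusted p = 0.098). In tcx5/6 their log2 changes were 0.34 ± 0.24, adjusted p = 0.24 for SDH1-1 and 0.53 ± 0.29, adjusted p = 0.11 for SDH2-1. Of the 21 gene lists 14 held none of the 200, among them the lists of senescence NAC factors, chlorophyll breakdown and jasmonate. Gene families were matched by gene symbol alone, so members without a family symbol, such as PGAZAT, ADPG1, the UDP-glycosyltransferase AT3G21790 and the RING gene AT2G20030, were not counted in a family.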

How the data were processed

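The submitters' processing notes name STAR 2.7.1a and HTSeq 2.0 beside Trim Galore 0.6.6 with cutadapt, and DESeq2 1.40.1. The build of the genome is not given here by any label or header. The deposited table holds a normalised signal, read counts per gene divided by 1 size factor per library; 100.0% of values were whole multiples of their library's smallest step within 0.01, so whole reads were recovered. limma 3.58.1 (R 4.3.3, mean-variance trend, all 15 groups in 1 fit) was run on log2(value + 1) for 23493 genes with 10 or more in at least 3 libraries, with Benjamini-Hochberg adjustment per comparison and calls at an adjusted p under 0.05. All 200 genes passed this filter; 183 did so on short-day and 152 on tcx5/6 libraries alone. Adjusted p-values of single genes are from limma unless another tool is named, and errors of log2 changes are standard errors. edgeR 4.0.16 and DESeq2 1.42.0 on the recovered counts were alternatives. The script was tested on simulated data. Floors (3 reads over a group) cover counting error only. The members, lists and named genes were chosen with earlier results of these data known. Genes are named by rule: the first 25 by gap, the edges of the list, up to 4 per gene list or family, and the largest of 4 kinds of call; others are said to be picked after their values were seen.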

Additional observations from a re-analysis of the deposited data

Results flagged for a closer look

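The D45 minus D13 change in tcx5/6 and the D40 minus D13 change in short days differed by the test of the difference itself (limma, adjusted p under 0.05) for 118 of the 200 genes with the smaller change in tcx5/6 and for 6 with the larger. Among the named genes, the largest such differences on the log2(value + 1) scale were -9.23 for AT4G28460, -8.89 for PGAZAT, -8.60 for AT5G46950, -8.35 for PAP20, -8.01 for CKX2, -7.79 for AT1G20180, -7.71 for WRKY59 and -7.59 for AT3G13435. All 8 had tcx5/6 D45 libraries at or near 0, so the size depends on the pseudocount. The 6 with the larger change in tcx5/6 were XIE, RGXT3, TOPP6, AT5G50315, SIB1 and AT5G40880, of which XIE, RGXT3 and SIB1 were named by rule. XIE had a tcx5/6 mean of 2.79 at D45 and 0 at D13, a change that was not called (limma, adjusted p = 0.16). Its short-day fall was not called by edgeR (adjusted p = 0.84) or DESeq2 (0.91). For AT5G50315, 38.8% of the long-day D40 level is expected from the opposite strand.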

How the results depend on the processing

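Counts below are higher, then lower, of the 200. Labels do not pair the replicates, and libraries with the same number did not deviate together (correlation -0.033 to 0.028 in short days, -0.068 to 0.124 in tcx5/6); with the replicate number as a block the counts were 73 and 15 (tcx5/6 D45 against D13), 49 and 7 (D45 against D30), 47 and 22 (D30 against D13), 161 and 2 (short days D40 against D13), 141 and 0 (D40 against D30), 77 and 13 (D30 against D13), and 6 and 117 for the difference. Leaving out each library in turn gave 62 to 87 and 13 to 18 (median 0.38 to 0.82), 25 to 55 and 4 to 9 (0.15 to 0.48) and 38 to 52 and 16 to 25 (0.01 to 0.15) for the 3 tcx5/6 comparisons in that order, 154 to 164 and 1 to 3 (2.31 to 2.38), 125 to 145 and 0 to 2 (1.57 to 1.65) and 69 to 81 and 7 to 13 (0.59 to 0.78) for short days, 5 to 7 and 105 to 120 (-1.82 to -1.51) for the difference, and kept 142 to 193 of the genes. The lower count in short days D40 against D13 was 1 with a pseudocount of 5, quantile normalisation, that series alone, edgeR and DESeq2, and its median was 2.21 with the pseudocount and 2.44 with edgeR. For D40 against D30 the lower count was 0 without the filter and 2 with the series alone. The short-day D30 against D13 median was 0.41 with the pseudocount, 0.55 with quantile normalisation, 0.88 with edgeR and 0.81 with DESeq2. With tcx5/6 alone 12 were lower at D30 against D13, and quantile normalisation gave 11 larger differences. Chosen after seeing the data, 1 library per short-day group left 1 lower for D40 against D13, 54 and 0, 36 and 1, and 1 and 67 for the difference. The first 100 genes gave 24 (median 0.28), 21 and 1, and 7 and 14 in tcx5/6, 80 and 1 (3.14), 73 (2.56) and 26 and 6 in short days, and 1 and 66 (-2.89) for the difference. The first 400 gave 182 and 33, 86 and 18, and 141 and 47 (0.34), 311 and 8 (1.71), 234 and 8 (0.90) and 186 and 21, and 20 and 190 (-0.92). Lists remade, also after seeing the data, without Col-0 long-day D40 replicate 1 or D30 replicate 1 had medians of 2.07 or 3.16 (short days D40 against D13), 1.33 or 2.17 (D40 against D30), 0.79 or 0.94 (D30 against D13) and -1.33 or -2.40 (the difference), and of 0.29 without the first for tcx5/6 D30 against D13. The rule kept 129 genes with a pseudocount of 5, and 66 or 127 with a flatness of 0.5 or 1.5 log2 units. The cause of these changes was not tested. Of 1920 values of named genes, 1843 stayed called or stayed uncalled, 48 lost the call and 29 gained it. Direction reversed for 0 of the values called in the main or the alternative fit. It was not compared for values called in neither. Depth limits genes near 0 reads.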
